A study of Mus musculus with 11 samples.

Results

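The cytosolic ribosomal protein genes of mouse epidermal cells were taken as the protein-coding genes whose symbol starts with Rpl or Rps and a number, together with *Rpsa*, *Rplp0*, *Rplp1* and *Rplp2*, leaving out the Rps6k kinases and the pseudogenes whose symbol ends in -ps. They were 86 of the 55536 genes in the count tables. Of the 86, 46 encode core proteins of the large subunit and 31 core proteins of the small subunit. A further 8 are close copies of a core gene (*Rpl10l*, *Rpl22l1*, *Rpl36al*, *Rpl39l*, *Rpl3l*, *Rpl7l1*, *Rps27l* and *Rps27rt*), and *Rps19bp1*, which the symbol rule also takes in, encodes a protein that binds RPS19 and is not a ribosomal protein itself. The members lie on 19 chromosomes.

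The cytosolic ribosome is built from a small subunit, which decodes the mRNA, and a large subunit, which joins the amino acids. Its proteins are needed in nearly equal amounts, and their mRNAs carry a run of pyrimidines at the 5′ end through which mTORC1 signalling controls their translation. RPLP0, RPLP1 and RPLP2 form the stalk of the large subunit that recruits the elongation factors, RPL12 sits at the base of this stalk, and RPL5 and RPL11 also bind the p53 inhibitor MDM2. In skin, protein synthesis is known to be low in resting hair follicle stem cells of the bulge and higher in cells that divide or differentiate.

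All cells came from male CD4Cre R26-tdT mice on the C57Bl6/N background, in which Cre under Cd4 control switches on the red protein tdTomato (tdT) for good, so that tdT marks cells with a history of Cd4 promoter activity and not current CD4. Thermolysin released the epidermal cells of dorsal skin, and flow cytometry sorted them into 4 groups, with 2 mice pooled for each library. The groups were tdT+CD49f+CD34+ cells (SCA-1 negative, 3 libraries), tdTneg CD49f+CD34+ cells (SCA-1 negative, 3 libraries), tdT+CD49f+CD34+SCA-1+ cells (3 libraries) and tdTneg CD49f+CD34+SCA-1+ cells (2 libraries). Mice were 29 weeks old for replicate 1 and 32 weeks old for replicates 2 and 3. The CD49f+CD34+ gate takes the bulge, and the comparisons ask how the cells with a Cd4 history differ from the others and how the SCA-1+ population differs from the bulge.

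The libraries held 17409131 to 46542177 counts. *Cd34* reached 468 to 1130 CPM (counts scaled to a common library size) in the 6 CD49f+CD34+ libraries and 22.3 to 35.7 CPM in the tdT+CD49f+CD34+SCA-1+ libraries, and it was at 320 and 383 CPM in the tdTneg CD49f+CD34+SCA-1+ libraries, although all were sorted as CD34+. *Ly6a*, which encodes SCA-1, was at 2.5 to 59 CPM in CD49f+CD34+ libraries and 153 to 294 CPM in CD49f+CD34+SCA-1+ libraries. One library went against its label in 1 measure. A single row outside the Ensembl genes stood at 133 to 307 CPM in 5 tdT+ libraries and 2.54 to 4.89 CPM in the tdTneg libraries, but at 2.05 CPM in the library labelled tdT+CD49f+CD34+ replicate 2, so the main counts, medians and calls that rest on this library are also given without it. Its T cell markers (11 genes) summed to 123 CPM, near the 92.8 and 99.4 CPM of the other tdT+CD49f+CD34+ libraries and above the 29.7 to 44.2 CPM of the tdTneg CD49f+CD34+ libraries, as its label says, so which of the 2 measures holds was not settled.

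The 60 bases around the transcription start of 8 ribosomal protein genes are shown because the comparisons turn on them: 4 (*Rps12*, *Rpl12*, *Rpl13a*, *Rplp0*) passed the test between populations, *Rplp2* and *Rps26* were among the genes with the smallest p-values between tdT+ and tdTneg SCA-1+ cells, and *Rps10* and *Rpl28* were among the 3 members that moved least with the others. Each is read 5′ to 3′ on the gene's strand from RefSeq (GRCm38.p6), 30 bases on either side of the start, and the capitals mark the longest unbroken run of C and T that falls in it. The stretches lie at chr10:23787180-23787239 (*Rps12*, minus strand), chr2:32961682-32961741 (*Rpl12*, plus), chr7:45128716-45128775 (*Rpl13a*, minus), chr5:115559437-115559496 (*Rplp0*, plus), chr7:141447621-141447680 (*Rplp2*, plus), chr10:128626477-128626536 (*Rps26*, minus), chr17:27635215-27635274 (*Rps10*, minus) and chr7:4792935-4792994 (*Rpl28*, plus).
Rps12: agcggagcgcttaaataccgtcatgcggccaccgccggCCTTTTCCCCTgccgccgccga
Rpl12: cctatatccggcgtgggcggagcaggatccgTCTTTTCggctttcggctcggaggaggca
Rpl13a: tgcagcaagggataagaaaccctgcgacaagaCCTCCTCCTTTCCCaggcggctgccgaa
Rplp0: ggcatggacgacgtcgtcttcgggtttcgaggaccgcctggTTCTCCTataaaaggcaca
Rplp2: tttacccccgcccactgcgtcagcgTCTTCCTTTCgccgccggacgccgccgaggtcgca
Rps26: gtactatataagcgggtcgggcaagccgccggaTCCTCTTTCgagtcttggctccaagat
Rps10: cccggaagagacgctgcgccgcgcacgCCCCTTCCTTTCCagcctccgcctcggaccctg
Rpl28: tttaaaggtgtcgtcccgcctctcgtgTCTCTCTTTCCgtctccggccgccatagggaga

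The capitals run from 7 bases in *Rpl12* and *Rplp0* to 14 bases in *Rpl13a*, and all 8 lie within 19 bases of the RefSeq start, which was 0 to 1425 bases away from the Ensembl start of the gene. RefSeq promoter windows, 250 bases before to 50 bases after a start, were at hand for 66 of the 86 members and gave 78 windows. A run of 10 or more pyrimidines within 30 bases of the start was present in 33.3% of member windows and in 10.9% of all 32851 windows, and the longest run had a median of 7 bases in members and 5 in all windows. CCGGAAG, the core of a site for ETS factors such as GABPA, was present on either strand in 34.6% of member windows against 8.86% of all. GCCATCTT, the core of a YY1 site, was present on either strand in 10.3% against 2.75%. TATAAA on the gene's strand, 40 to 16 bases before the start, was present in 1.28% against 1.99%. The reverse of CCGGAAG and GCCATCTT itself hold short pyrimidine stretches, so that these matches can overlap the pyrimidine run. The same letters stood in genes that passed a test and in genes that did not: *Rps10* and *Rpl28* have runs of 13 and 11 bases.

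Of the 86 members, 83 passed the filter on low counts and were tested. *Rpl10l*, a testis copy of *Rpl10*, had 41 counts in the library that went against its label and 0 in every other library. *Rpl3l*, a striated muscle copy of *Rpl3*, had 126 counts in tdTneg CD49f+CD34+ replicate 2 and 0 to 4 elsewhere. *Rpl39l* had 0 to 9 counts. These 3 genes received no test, and both *Rpl10l* and *Rpl3l* rested on 1 library each.

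Levels differed widely between members, although their proteins stand in nearly equal number on the ribosome. Per kilobase of principal transcript, the mean over 11 libraries was high for *Rpl8* (1163 CPM per kb), *Rpl4* (1141) and *Rplp1* (951), and lowest among tested members for *Rps27rt* (1.42), *Rpl23a* (1.84), *Rpl36al* (2.72) and *Rpl19* (3.65). The median was 72.0 CPM per kb. The 5 most abundant members took 38.6 to 44.3% of the counts of all members, and the 10 most abundant took 56.1 to 60.3%. *Rps6*, the small-subunit protein that S6 kinases phosphorylate, reached 5.64 CPM per kb, *Rpl5* 7.74 and *Rpl11* 15.95, far below the 637 CPM per kb of *Rps14*. *Rps27a*, which encodes a fusion of ubiquitin with a ribosomal protein, had 20.6 CPM per kb. *Fau*, which encodes a fusion of a ubiquitin-like protein with RPS30 and is left out by the symbol rule, had 6.98 to 11.9 CPM.

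Many members share sequence with other genes, among them processed pseudogenes. In 42 of the 83 tested members, 50% or more of the 50-base windows of the exons also occurred in another gene, and these 42 had a median of 43.2 CPM per kb against 105 CPM per kb in the other 41. *Rps27* had 98.65% of its windows shared, *Rpl5* 93.8%, *Rps12* 83.55% and *Rpl3* 85.56%, whereas *Rps19bp1* had none. Across the 83 genes, the level and the shared percentage had a Spearman's rho of -0.367, a description in which the points share all libraries. How reads that match several genes were counted is not given in the sources used here, so that the levels and folds of the members with shared sequence are uncertain. Exons of other genes, on either strand, also lie over part of some members, up to 66.16% of the exonic bases of *Rpl35*. The 290 annotated ribosomal protein pseudogenes took 0.005 to 0.010% of counts.

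**Figure D1:**
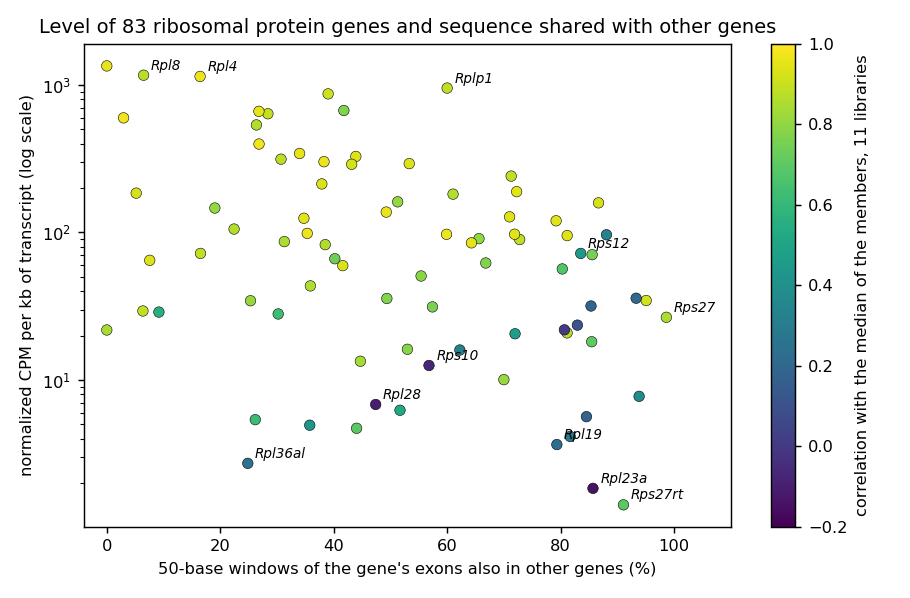
Level of each of the 83 tested genes (normalized CPM per kb, log axis) against the percentage of its 50-base exon windows that also occur in other genes, coloured by the correlation of the gene with the median of the members over 11 libraries. *Rpl8* and *Rpl4* stand near the top with few shared windows, and *Rpl23a*, *Rpl28* and *Rps10* have the weakest correlations (dark points).

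Members took 1.07 to 2.33% of the counts of a library. The share was 1.15, 1.14 and 1.49% in tdT+CD49f+CD34+ libraries (1.26% ± 0.200, SD, n = 3) and 1.18, 1.38 and 1.82% in tdTneg CD49f+CD34+ libraries (1.46% ± 0.324, n = 3). It was 1.54, 2.33 and 1.60% in tdT+CD49f+CD34+SCA-1+ libraries (1.82% ± 0.441, n = 3) and 1.19 and 1.07% in tdTneg CD49f+CD34+SCA-1+ libraries (1.13% ± 0.0829, n = 2). The SCA-1+ groups did not overlap, tdT+ being above tdTneg, while both CD49f+CD34+ groups overlapped. Fewer cells of a type and less RNA per cell cannot be told apart in such bulk libraries.

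**Figure D2:**
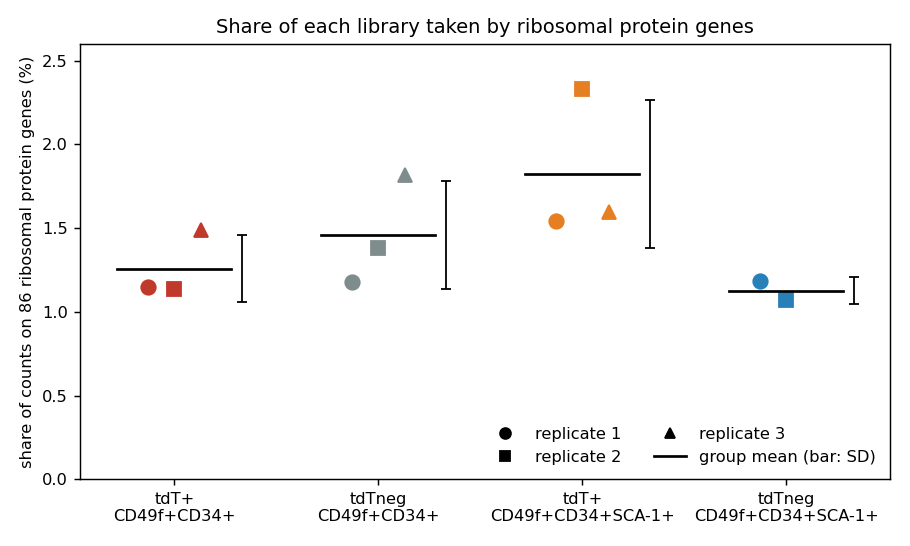
Percentage of all counts of a library that fell on the 86 ribosomal protein genes, with 1 point per library by group, the symbol giving the replicate number, the line the group mean and the bar its SD. tdT+CD49f+CD34+SCA-1+ replicate 2 stands highest at 2.33%, and both tdTneg CD49f+CD34+SCA-1+ libraries lie at 1.19% or below.

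Most members varied together across libraries. The log2 CPM of a gene and the median deviation of all 83 genes from their own means had a median Pearson's r of 0.852 over 11 libraries, and the median between pairs of members was 0.616. *Rps3*, *Rpl32*, *Rps7* and *Rpl4* followed this median most closely (r of 0.97). *Rpl23a* (-0.14), *Rpl28* (-0.10) and *Rps10* (-0.07) did not follow it. Members with r under 0.5 numbered 17, of which 14 were among the 42 with 50% or more of their windows shared. The median deviation over the members was highest in tdT+CD49f+CD34+SCA-1+ replicate 2 (0.61) and tdTneg CD49f+CD34+ replicate 3 (0.34) and lowest in tdTneg CD49f+CD34+SCA-1+ replicates 2 (-0.38) and 1 (-0.26), and the 3 tdTneg CD49f+CD34+ libraries alone ranged from -0.20 to 0.34. Among members with a mean of at least 10 CPM, *Rpl39* and *Rplp1* (coefficient of variation 38.1% each), *Rplp0* (36.04%) and *Rps26* (33.4%) varied most between libraries, and *Rpl10a* (10.7%), *Rpl12* (17.2%) and *Rps27a* (17.9%) varied little. Outside the members, the genes whose log2 CPM was most like the summed CPM of the members over the 11 libraries were *Rtraf* (r of 0.981), *Eef1b2* (0.975), a subunit of the elongation factor that reloads eEF1A, *Dynlrb1* (0.974), *Igbp1* (0.974) and *S100a10* (0.957).

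**Figure D3:**
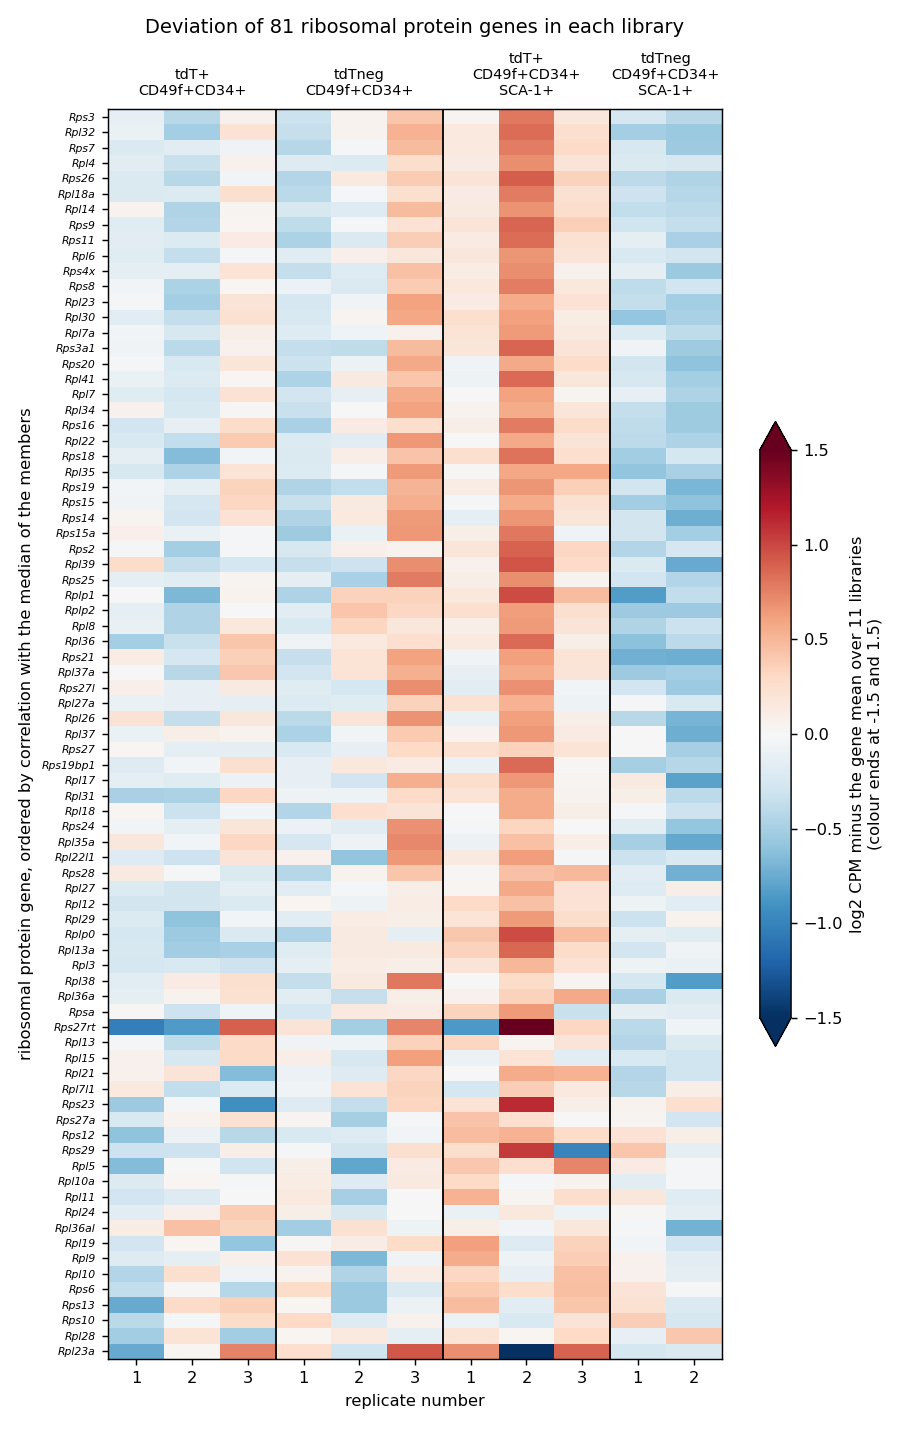
Deviation of 81 of the 83 tested genes (log2 CPM minus the mean of the gene over 11 libraries, colour) in each library, the genes ordered by their correlation with the median of the members. Most rows are red in tdT+CD49f+CD34+SCA-1+ replicate 2 and blue in both tdTneg CD49f+CD34+SCA-1+ libraries, and the rows at the bottom, down to *Rpl23a*, do not share this pattern.

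Among SCA-1+ cells, tdT+ libraries had more counts on nearly all ribosomal protein genes than tdTneg libraries, but no single gene passed in the main edgeR fit, while DESeq2 called 9 higher. A few members passed in edgeR when only the compared groups were fitted or when every gene with 1 count or more was tested, as given below. *Rplp1* measured 497, 875 and 615 CPM in tdT+ and 250 and 345 CPM in tdTneg libraries. *Rplp2*, its partner in the stalk, measured 347, 452 and 345 CPM in tdT+ and 201 and 200 CPM in tdTneg libraries. *Rps21*, a small-subunit protein, measured 195, 308 and 233 CPM against 122 and 121 CPM. The groups did not overlap for any of the 3. The log2 fold change was 1.15 ± 0.35 (SE) for *Rplp1*, 0.93 ± 0.22 for *Rplp2* and 1.01 ± 0.30 for *Rps21*, with edgeR adjusted p of 0.14, 0.0604 and 0.131. *Rps26* (0.94 ± 0.27) had an adjusted p of 0.127.

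Of the 83 members, 0 passed an adjusted p of 0.05 in edgeR in this comparison, where 2.55% of all genes did, and 45 had an unadjusted p under 0.05, all higher in tdT+, where 5.17% of all genes were. The log2 fold change was positive for 82 of 83 (53.6% of all genes), and tdT+ and tdTneg libraries did not overlap for 62, all higher in tdT+ (16.6% of all genes). The median was 0.67 against 0.04 over all genes. Both subunits had it, with a median of 0.63 in the large (46 of 46 positive) and 0.72 in the small (30 of 31). The exception was *Rps10*, at 10.3, 9.31 and 12.5 CPM in tdT+ and 14.2 and 9.17 CPM in tdTneg libraries (-0.13 ± 0.31). *Rpl28* (0.01) and *Rpl24* (0.06) were near 0. DESeq2 called 9 members higher (*Rpl30*, *Rpl32*, *Rplp0*, *Rplp1*, *Rplp2*, *Rps2*, *Rps21*, *Rps26* and *Rps9*), where it called 1.84% of all genes higher. The 95% interval of a member's log2 fold change reached 0.643 to either side at the median. Without tdT+CD49f+CD34+SCA-1+ replicate 2 the median was 0.41, 79 members were positive and 16 had an unadjusted p under 0.05 (82 and 45 with all libraries). The shares of all genes in that fit are not given here. Within replicate 1 the median was 0.36 (0.06 over all genes) with 79 members higher in tdT+, and within replicate 2 it was 1.07 (-0.01 over all genes) with 80.

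Other genes with short transcripts had positive values too. Among other protein-coding genes with a mean log2 CPM over 5, those with transcripts under 600 bases had a median log2 fold change of 0.67 in this comparison (28 of 30 positive), those of 600 to 899 bases 0.45 (n = 87), those of 900 to 1499 bases 0.29, those of 1500 to 2999 bases 0.13, those of 3000 to 5999 bases 0.05, and those of 6000 bases or more 0.01. Members were at 0.72 under 600 bases (n = 20), 0.57 at 600 to 899 (n = 24), 0.68 at 900 to 1499 (n = 27), 0.45 at 1500 to 2999 (n = 10) and 0.71 at 3000 to 5999 (n = 2). Markers of other cells differed between these groups too. T cell markers (11 genes, none at 0 in all libraries) summed to 568 to 1336 CPM in tdT+ and 201 to 210 CPM in tdTneg SCA-1+ libraries, endothelial markers to 50.7 to 133 CPM and 3811 to 4008 CPM, Langerhans and myeloid markers to 554 to 732 and 846 to 1444 CPM, markers of suprabasal epidermis to 7602 to 10729 and 3282 to 7677 CPM, and bulge markers (8 genes) to 4427 to 5787 and 5696 to 7417 CPM. Gene by gene, the bulge markers had a median log2 fold change of -1.33, 7 of the 8 were lower at an unadjusted p under 0.05, and 3 were called lower by edgeR, namely *Cd34* (-3.68), *Lhx2* (-2.69) and *Lgr5* (-2.31). Apart from an offset for transcript length and GC content, given below, the part of transcript length and of other cells was not tested.

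**Figure D4:**
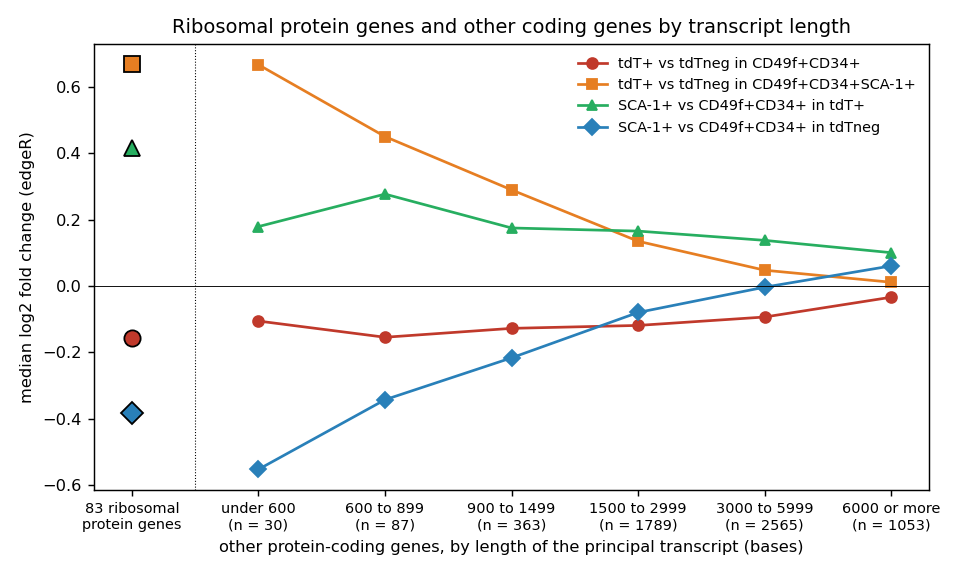
Median log2 fold change (edgeR) of the 83 ribosomal protein genes (left) and of other protein-coding genes by length of the principal transcript in bases (right), for 4 comparisons, with the number of genes under each class. For tdT+ against tdTneg SCA-1+ cells the other genes go from 0.67 in the shortest class to 0.01 in the longest, and the members stand at 0.67.

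Between tdT+ and tdTneg CD49f+CD34+ cells, no ribosomal protein gene passed the test. In edgeR, 0 of 83 members passed, where 0.00985% of all genes did, and DESeq2 called 0 where it called 2.3% of all genes. An unadjusted p under 0.05 was found for 3 members, all lower in tdT+ (3.86% of all genes). *Rpl13a* measured 26.6, 21.9 and 22.5 CPM in tdT+ and 27.7, 34.6 and 34.7 CPM in tdTneg libraries (-0.45 ± 0.19). *Rpl12* measured 36.03, 36.05 and 37.5 CPM against 44.8, 41.5 and 47.2 CPM (-0.28 ± 0.12), and the third was *Rpl3* (-0.29). For these 3 the groups did not overlap, as for 10.9% of all genes in that direction. The median over members was -0.16 against -0.03 over all genes, and 12 members were positive (47.3% of all genes). It was -0.07 with the library that went against its label left out, -0.29 without tdTneg CD49f+CD34+ replicate 1 and 0.06 without tdTneg CD49f+CD34+ replicate 3, so that 1 library decided its sign. By replicate number, 51, 29 and 15 members were higher in tdT+ in replicates 1, 2 and 3. The member medians were 0.09, -0.14 and -0.31, against -0.07, -0.03 and -0.10 over all genes. The 95% interval of a member's log2 fold change reached 0.565 to either side at the median, which leaves differences of that size undetected. In tdT+ and tdTneg libraries, T cell markers summed to 92.8 to 123 and 29.7 to 44.2 CPM, and Langerhans and myeloid markers to 517 to 934 and 364 to 460 CPM. Suprabasal markers summed to 1769 to 4433 and 516 to 1819 CPM, and bulge markers to 11661 to 18559 and 15971 to 22357 CPM. The part of other cells here was not tested.

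The tdT difference was larger in SCA-1+ than in CD49f+CD34+ cells for 80 of the 83 members (52.5% of all genes), with a median difference of 0.82 on the log2 scale against 0.05 over all genes. No member passed the test of this difference in edgeR, where 0.389% of all genes did, and 30 had an unadjusted p under 0.05, all positive (4.77% of all genes). *Rplp2* (1.33 ± 0.29, adjusted p of 0.0911) was called by DESeq2, the 1 member so called (0.478% of all genes), and *Rplp1* had the largest value (1.45 ± 0.46, adjusted p of 0.225). *Rpl24* (-0.11) and *Rps10* (-0.03) were among the 3 members below 0. Leaving out tdTneg CD49f+CD34+ replicate 3 gave a median of 0.54, leaving out the second tdT+CD49f+CD34+SCA-1+ library gave 0.55, and leaving out the library that went against its label gave 0.74.

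Within tdT+ cells, 5 of 83 ribosomal protein genes (6.02%) were higher in the SCA-1+ population than in the bulge population and none was lower, a share near the 5.66% of all genes called higher. All 5 calls were lost when the 2 groups were fitted without the others (adjusted p of 0.0547 to 0.0786). *Rps12*, a small-subunit protein (chr10, 23785183 to 23787275), measured 56.3, 58.8 and 49.6 CPM in SCA-1+ and 26.8, 38.6 and 30.7 CPM in CD49f+CD34+ libraries. *Rplp0*, the scaffold of the stalk (chr5, 115559467 to 115563727), measured 1146, 1709 and 1192 CPM against 720, 591 and 745 CPM. *Rpl12*, at the base of the stalk (chr2, 32961559 to 32965345), measured 53.3, 59.2 and 50.9 CPM against 36.03, 36.05 and 37.5 CPM. These groups did not overlap, the SCA-1+ libraries being higher throughout.

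*Rpl3*, which lies next to the peptidyl transferase centre (chr15, 80077791 to 80091868), measured 108.05, 133 and 110 CPM in SCA-1+ and 78.1, 80.3 and 75.7 CPM in CD49f+CD34+ libraries. *Rpl13a*, known also for restraining translation of inflammatory mRNAs once released from the ribosome (chr7, 45125558 to 45128761), measured 40.1, 57.5 and 38.1 CPM against 26.6, 21.9 and 22.5 CPM. Again there was no overlap. The log2 fold change was 0.78 ± 0.16 (SE) for *Rps12*, 0.98 ± 0.22 for *Rplp0*, 0.58 ± 0.12 for *Rpl12*, 0.58 ± 0.12 for *Rpl3* and 0.93 ± 0.19 for *Rpl13a*, all under a 2-fold change, with edgeR adjusted p of 0.0116 to 0.0168. Of the exon windows of these 5 genes, 41.79 to 85.56% also occur in other genes. Exons of another gene, on either strand, lie over 35.38% of the exonic bases of *Rpl13a* and 13.67% of those of *Rps12*. For *Rpl12*, *Rpl3* and *Rplp0* this was 5.17, 2.93 and 0.0%.

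Of the members, 19 had an unadjusted p under 0.05, all higher (13.4% of all genes). The log2 fold change was positive for 79 (46.5% of all genes), and the groups did not overlap for 29, all higher in SCA-1+ (15.4% of all genes). The median was 0.42 against -0.07 over all genes, with 0.44 in the large and 0.40 in the small subunit. DESeq2 called 11 members higher (8.26% of all genes), these 5 with *Rpl29*, *Rpl6*, *Rps18*, *Rps2*, *Rps26* and *Rps9*. *Rps23* had the largest fold change (1.01), without passing, and *Rpl36al* (-0.23) the lowest. The call of *Rplp0* was lost when the library that went against its label was left out (adjusted p of 0.0569, 4 calls remaining, median 0.36). Without tdT+CD49f+CD34+SCA-1+ replicate 2 there were 5 calls, a median of 0.24 and 70 positive members (79 with all libraries). The shares of all genes in that fit are not given here. Within replicates 1, 2 and 3 the medians were 0.25, 0.88 and 0.11. Beside these values, T cell markers summed to 92.8 to 123 CPM in tdT+CD49f+CD34+ and 568 to 1336 CPM in tdT+CD49f+CD34+SCA-1+ libraries, suprabasal markers to 1769 to 4433 and 7602 to 10729 CPM, and bulge markers to 11661 to 18559 and 4427 to 5787 CPM. Endothelial markers reached 855 CPM in the library that went against its label. Other protein-coding genes under 600 bases had a median of 0.18 and those of 6000 bases or more 0.10. Apart from the same offset, the part of other cells, of transcript length and of the mitochondrial share in the 5 calls was not tested.

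Within tdTneg cells most members had lower values in SCA-1+ than in CD49f+CD34+ libraries. *Rps21* measured 122 and 121 CPM in SCA-1+ and 158, 232 and 306 CPM in CD49f+CD34+ libraries (-0.93 ± 0.30, adjusted p of 0.104). *Rplp2* measured 201 and 200 CPM against 259, 390 and 363 CPM (-0.75 ± 0.22, adjusted p of 0.0787). Neither overlapped, and both were called by DESeq2, which called 7.32% of all genes lower. In edgeR 0 of 83 passed, where 5.77% of all genes did, and 10 had an unadjusted p under 0.05, all lower (10.4% of all genes). For 27 members the SCA-1+ libraries were lower without overlap (26.4% of all genes) and for 2 they were higher (19.9%). The median was -0.38 against -0.13 over all genes, and 13 members were positive (41.5% of all genes), among them *Rps12* (0.30). Within replicate 1 the median was -0.02 (-0.07 over all genes) with 38 members higher in the SCA-1+ library, and within replicate 2 it was -0.33 (-0.09 over all genes) with 20 higher. Replicate 3 of tdTneg CD49f+CD34+ has no SCA-1+ counterpart, and without it the median over the remaining libraries was -0.16. Other protein-coding genes under 600 bases had a median of -0.55 in this comparison and those of 6000 bases or more 0.06. Endothelial markers summed to 3811 to 4008 CPM in the SCA-1+ and 33.8 to 119 CPM in the CD49f+CD34+ libraries. In the same order, T cell markers summed to 201 to 210 and 29.7 to 44.2 CPM, and Langerhans and myeloid markers to 846 to 1444 and 364 to 460 CPM. Suprabasal markers summed to 3282 to 7677 and 516 to 1819 CPM, and bulge markers to 5696 to 7417 and 15971 to 22357 CPM. Apart from the offset for transcript length and GC content given below, the part of these in the result was not tested. This comparison shares the tdTneg SCA-1+ libraries with the comparison between tdT+ and tdTneg SCA-1+ cells.

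Averaged over tdT, *Rps12* was the 1 member called between populations, higher in SCA-1+ cells, where 8.88% of all genes were called higher. Its tdTneg SCA-1+ libraries measured 47.5 and 43.6 CPM and its tdTneg CD49f+CD34+ libraries 34.98, 35.9 and 39.9 CPM, so that all 5 SCA-1+ libraries stood above all 6 CD49f+CD34+ libraries. The log2 fold change was 0.54 ± 0.12 with an edgeR adjusted p of 0.0108, and 0.0554 without tdTneg CD49f+CD34+SCA-1+ replicate 1, where the call was lost. With the library against its label left out it was 0.62 (adjusted p of 0.0048), and the median over members was 0.0021. *Rps12* was the 1 member whose populations did not overlap (5.1% of all genes in that direction). DESeq2 also called *Rplp0* (11.7% of all genes called higher), for which edgeR gave 0.47 ± 0.16 and an adjusted p of 0.0634. *Rps23* (0.60), *Rpl5* (0.48) and *Rps6* (0.42) had the other high values and *Rpl35a* (-0.40), *Rpl38* (-0.38) and *Rps21* (-0.37) the low ones. An unadjusted p under 0.05 was found for 6 members, all higher (14.7% of all genes), 48 were positive (44.1% of all genes) and the median was 0.04 against -0.09 over all genes.

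**Figure D5:**
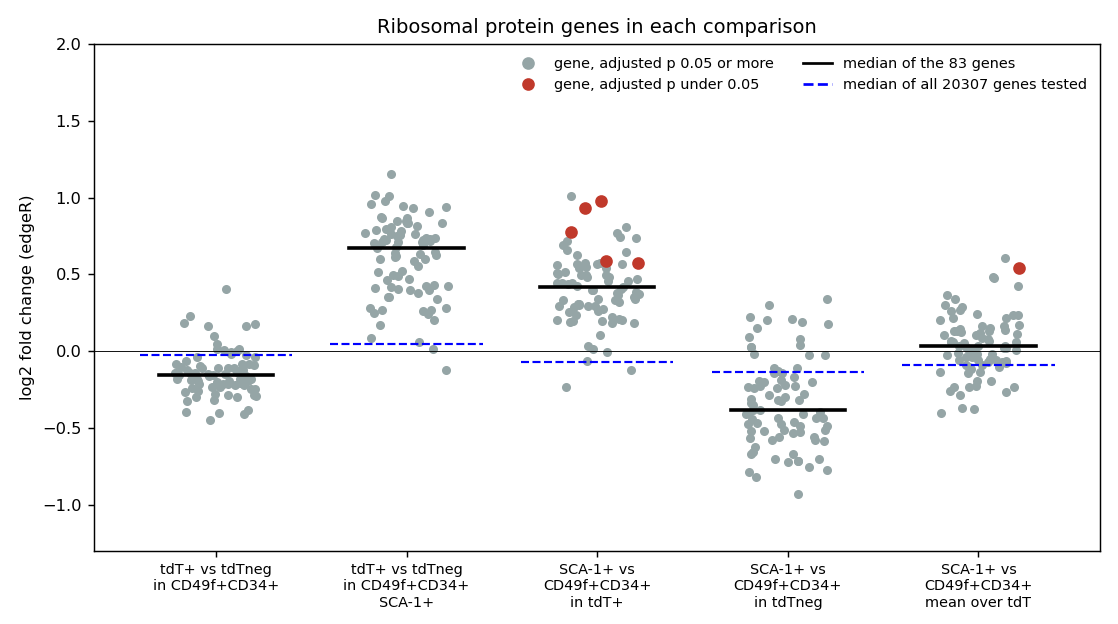
Log2 fold change (edgeR) of each of the 83 ribosomal protein genes in 5 comparisons, 1 point per gene, red where the adjusted p is under 0.05, with the median of the members (black) and of all 20307 genes tested (dashed). The members lie above 0 between tdT+ and tdTneg SCA-1+ cells (median 0.67) with no red point, and 5 red points appear between SCA-1+ and CD49f+CD34+ cells within tdT+.

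Other members with a role outside the ribosome or a close copy passed none of these tests in edgeR. The fold changes given here are between SCA-1+ and CD49f+CD34+ cells within tdT+. *Rpl5* measured 20.2, 18.2 and 25.2 CPM in tdT+CD49f+CD34+SCA-1+ and 9.65, 15.3 and 12.4 CPM in tdT+CD49f+CD34+ libraries (log2 fold change 0.77), and *Rpl11*, its partner in MDM2 binding, 18.8, 13.4 and 15.7 against 10.7, 11.4 and 13.1 CPM (0.44). *Rps6* measured 6.37, 5.79 and 6.61 against 3.72, 4.87 and 3.58 CPM (0.62). *Rpsa*, known also as a laminin receptor, had 0.38, *Rps19*, mutated in Diamond-Blackfan anaemia, 0.33, *Rps14* 0.27, *Rpl10* 0.29, *Rpl38*, needed for translation of Hox mRNAs, 0.03, *Rpl39* 0.57, *Rps4x* 0.33 and *Rps19bp1* 0.31. With the library against its label left out, *Rpl5* was at 0.94, *Rpl11* at 0.42 and *Rps6* at 0.78, again without passing, and *Rps14* at 0.15.

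The balance between a core gene and its copy did not differ detectably between populations. Per length, *Rpl22l1* reached 0.365 to 0.593 of the level of *Rpl22* across the 11 libraries, *Rps27l* 2.96 to 5.09 times that of *Rps27*, *Rpl36al* 0.105 to 0.224 of *Rpl36a* and *Rpl7l1* 0.0743 to 0.146 of *Rpl7*. The log2 ratio differed between SCA-1+ and CD49f+CD34+ libraries by 0.10, -0.23, -0.30 and -0.05, with p of 0.444, 0.143, 0.225 and 0.81 (exact permutation test over 462 arrangements, two-sided, the 4 adjusted p being 0.592, 0.45, 0.45 and 0.81). With the library against its label left out, the differences were 0.12, -0.25, -0.24 and -0.07 (exact permutation test over 252 arrangements, adjusted p of 0.519 to 0.746). Both permutation tests shuffled all libraries freely. Libraries with the same replicate number were read as sharing mice, so the p-values ignore this pairing. Nearly all exon windows of *Rps27* are shared with other genes, so that its ratio is uncertain.

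Part of the genes that build the ribosome were higher in SCA-1+ than in CD49f+CD34+ cells. Averaged over tdT, 16 of 66 ribosome biogenesis genes were called higher and 0 lower (8.88% of all genes called higher, median log2 fold change 0.31), among them *Rrp12*, which exports pre-ribosomal subunits (0.90 ± 0.16, adjusted p of 0.0047), *Utp4*, of the small-subunit processome (0.89), and *Ddx21*, a nucleolar RNA helicase (0.64, adjusted p of 0.00248). Within tdT+ it was 18 of 66 (5.66% of all genes, median 0.53), led by *Rrp12* (1.01), *Utp4* (0.99) and *Tsr1* (0.95), and within tdTneg 0, where 6 were higher at an unadjusted p under 0.05 (10.7% of all genes) and DESeq2 called 6 higher (10.4% of all genes). These counts were 6 to 16 and 6 to 19 when 1 library was left out, and 13 and 9 without the library against its label. Of 15 genes of RNA polymerase I, which makes the ribosomal RNA precursor, 3 were called higher averaged over tdT (*Polr1d* at 0.49, *Taf1d* and *Rrn3*) and 1 within tdT+ (*Polr1d*, 0.91), which became 0 and 1 without the library against its label. Beside these values, in SCA-1+ and in CD49f+CD34+ libraries, T cell markers summed to 201 to 1336 and 29.7 to 123 CPM, suprabasal markers to 3282 to 10729 and 516 to 4433 CPM, and bulge markers to 4427 to 7417 and 11661 to 22357 CPM, and the part of other cells in the changes of these genes and of the translation factors was not tested.

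Of 37 translation initiation factors and poly-A binding proteins, 7 were called higher averaged over tdT (8.88% of all genes) and 7 within tdT+ (5.66%), led by *Pabpc1*, which binds poly-A tails (0.69 and 0.95), *Eif6*, which keeps free large subunits apart from small ones (0.59 and 0.82), and *Eif2s1*, which brings the initiator tRNA (0.58 and 0.78). Of 9 elongation factors, *Eif5a* was called averaged over tdT (0.48, adjusted p of 0.0168) and *Eif5a* (0.70) and *Eef1g* (0.68) within tdT+. Without the library against its label, 5 and 3 initiation factors and 1 and 0 elongation factors were called. Of 11 other mRNAs with a 5′ pyrimidine tract, *Rack1* (0.83) and *Slc25a5* (0.75) were called higher within tdT+, and *Vim*, also a marker of non-epidermal cells, averaged over tdT (2.54) and within tdTneg (3.84). Of the 8 host genes of small nucleolar RNAs, *Zfas1* was called within tdT+ (0.91). The calls of *Rack1*, *Slc25a5* and *Zfas1* were lost without the library against its label (adjusted p of 0.115, 0.113 and 0.0624). None of the 77 tested mitochondrial ribosomal protein genes or the 34 tested ribosomal protein pseudogenes was called by edgeR in any comparison, where 0.00985 to 19.3% of all genes were. For the mitochondrial list, 0 to 13 genes had an unadjusted p under 0.05 on the higher side and 0 to 4 on the lower (4.56 to 14.7% and 3.86 to 19.7% of all genes over the same comparisons). DESeq2 called at most 1 gene of this list in either direction, where it called 0.478 to 11.7% of all genes higher and 0.296 to 15.2% lower. Between tdT+ and tdTneg SCA-1+ cells no gene of these lists passed in edgeR, the biogenesis genes had a median of 0.32 (7 with an unadjusted p under 0.05, 1 called by DESeq2), and the mitochondrial ribosomal protein genes had a median of 0.34 with 73 of 77 positive (11 with an unadjusted p under 0.05, 1 called by DESeq2). Over all genes in that comparison the median was 0.04, 53.6% were positive, 5.17% were higher at an unadjusted p under 0.05 and DESeq2 called 1.84% higher.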

How the data were processed

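Total RNA of FACsorted cells was made into TruSeq v2 libraries, which do not keep strand, and, per the labels, the authors used bcl2fastq (2.20.0.422), FastQC, STAR on mm10, featureCounts and DESeq2 (1.18.1). Strand and multi-mapping settings are not given in the sources used here. The deposited values are raw read counts per Ensembl gene and library, unnormalized.

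Members and gene lists were chosen with earlier results of these data known. Counts of 11 libraries were filtered (filterByExpr, 20307 genes), scaled by TMM and fitted with 1 mean per group in edgeR (4.0.16, quasi-likelihood, R 4.3.3), with Benjamini-Hochberg adjustment over all tested genes and a threshold of 0.05. The extra row outside Ensembl stayed out. DESeq2 (1.42.0) was an alternative, as were other filters, scalings and replicate blocks. CPM values are TMM-scaled, levels per kb use the principal transcript, and correlations use log2 CPM (prior count 2). The fit was also run on simulated data with the same spread for all genes, below that of these data, which cannot show how it behaves here. p-values measure the spread between libraries, each of 2 pooled mice. The common biological coefficient of variation was 0.608. A share's precision is set by the spread between libraries.

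Named were a set of members with roles beyond the ribosome or with copies; per comparison, those with adjusted p under 0.05 and those farthest from the member median; the extremes of level and variation; and up to 3 called genes per list and direction. Members shown for other values, and the copy ratio test, were chosen after their values were seen. Replicate numbers were read as the pools of mice that the groups share: deviations of the 15 same-number pairs had a median r of 0.0828 (-0.415 to 0.589) and those of the 30 other pairs -0.0226 (-0.602 to 0.513). A replicate block was therefore tried only as an alternative. Promoter windows were read from RefSeq (GRCm38.p6). Some genes are not reported here by name.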

Additional observations from a re-analysis of the deposited data

Results flagged for a closer look

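A signal appeared in the single row that matches no Ensembl gene, which the comparisons of ribosomal protein genes do not use. It stood at 133 and 252 CPM in tdT+CD49f+CD34+ replicates 1 and 3 and at 254, 224 and 307 CPM in tdT+CD49f+CD34+SCA-1+ replicates 1, 2 and 3, above the 2.54 to 4.89 CPM of the tdTneg libraries.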

How the results depend on the processing

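The 16 values that summarise the members were recomputed under the alternatives that apply to each, which gave 279 values, of which 261 stayed close to the reported value and 18 moved. Close means within 1.5 times for a count of calls, within 0.23 on the log2 scale for a median (the SD of the member score between libraries of a group) and within the group's SD for a share, so a median can change sign and count as close. The 6 calls of single genes were recomputed 125 times, of which 116 stayed past the threshold and 9 did not, and none changed sign. The number of members called between tdT+ and tdTneg SCA-1+ cells, 0, was 9 in DESeq2, 2 when every gene with 1 count or more was tested, and 4 with the compared groups only. Averaged over tdT, 1 became 2 in DESeq2 and 2 with a minimum of 10 counts. Within tdT+, 5 became 11, 3 with at least 1 count and 0 with the compared groups only. Within tdTneg, 0 became 2 in DESeq2 and 1 with at least 1 count, and for the difference of the tdT effects 0 became 1 and 1. As a share of nuclear protein-coding counts, members of the tdTneg SCA-1+ group took 1.21%. Leaving out 1 library at a time gave 0 to 0 members between tdT+ and tdTneg in either population, 0 to 2 averaged over tdT, 4 to 6 within tdT+, and 0 to 0 within tdTneg and for the difference. The medians ranged, in the order of the comparisons tdT in CD49f+CD34+, tdT in SCA-1+, mean, within tdT+, within tdTneg and difference, from -0.29 to 0.06, 0.41 to 0.77, -0.04 to 0.14, 0.24 to 0.51, -0.48 to -0.16 and 0.54 to 0.92, and the shares from 1.14 to 1.32%, 1.28 to 1.60%, 1.57 to 1.96% and 1.07 to 1.19%. Leaving out a tdTneg SCA-1+ library leaves 1, which is then assumed to vary like the other groups. With the replicate block, the counts were 0, 0, 1, 5, 0 and 0 and the medians -0.14, 0.58, 0.07, 0.43, -0.26 and 0.71, and no call changed. An offset for principal transcript length and GC content, added after seeing the data, gave medians of -0.25, 0.49, 0.09, 0.46, -0.30 and 0.77.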

Other observations

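Of 24 genes of mTORC1 and Myc signalling, which regulate ribosome production, 4 were called in either direction, where 19.3% of all genes were: *Sesn2* (1.02), *Mycl* (0.98) and *Mxd1* (0.61) were higher and *Sesn1* (-0.67) lower (8.88% of all genes called higher and 10.4% lower) in SCA-1+ than in CD49f+CD34+ libraries averaged over tdT (log2 fold changes, edgeR adjusted p under 0.05). Of 10 genes of the p53 pathway, *Eda2r* (1.48) and *Cdkn1a* (1.36) were higher and *Phlda3* (-0.58) and *Trp53inp1* (-0.44) lower. Without the library against its label, the calls of *Mxd1* and *Trp53inp1* were lost (adjusted p of 0.0636 and 0.0846). Of 12 S phase and mitosis genes, 5 were called higher averaged over tdT, namely *Ccnb1* (1.01), *Mki67* (0.95), *Top2a* (0.93), *Mcm2* (0.49) and *Mcm6* (0.44). Within tdT+ 4 were called higher (5.66% of all genes), and without that library the counts were 5 and 3.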
